A study of Mus musculus with 24 samples.

Results

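*Apln*, *Aplnr*, *Esm1*, *Kcne3* and *Mcam* are 5 of the 48820 entries in each of the deposited mouse gene tables, and they were selected by symbol as the apelin ligand and receptor with 3 genes known from endothelial tip cells. Apelin is a small secreted peptide, and the apelin receptor (APLNR) is a G protein-coupled receptor of the endothelium. Tip cells lead a growing vessel sprout and are known for apelin and ESM1, whereas the cells that follow them are known for the apelin receptor. GDF2 (BMP9) and BMP10 are ligands of the endothelial receptor ALK1 and are known to restrain sprouting.

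The data are RNA-seq counts of 24 libraries, 3 per group, made from C57BL/6 mice. Liver endothelial cells (ECs, sorted as CD45- CD31+) came from HSC-KO mice, which carry *Lrat* Cre and floxed alleles of *Gdf2* and *Bmp10* (fl/fl for each), and from control mice with the floxed alleles and no Cre, all aged 8 to 10 weeks. Whole livers came from HSC-KO mice and mice labelled as controls, aged 12 weeks. Liver macrophages (CD45+ Ly6C- F4/80+ CD64+) came from the HSC-KO line, with mice labelled as controls, and from *Smad4* fl/fl *Vav1* Cre mice with *Smad4* fl/fl controls, all aged 8 to 10 weeks. *Lrat* Cre acts in hepatic stellate cells (HSCs) and *Vav1* Cre in hematopoietic cells, so neither Cre was directed at ECs. The labels name the same mouse for an EC library and a macrophage library in 3 cases, all in the HSC-KO line.

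Total counts were 66694659 to 87879751 per EC library, 73941995 to 104087482 per liver library and 60911527 to 110879155 per macrophage library. A count of 3 corresponded to 0.0270 to 0.0493 CPM of the library total, and such limits cover counting error only. Elsewhere, CPM are counts scaled to library size with edgeR's TMM factors, which moves this limit somewhat. A gene was called where edgeR's quasi-likelihood test, fitted over all genes that passed its expression filter, gave a Benjamini-Hochberg (BH) adjusted p below 0.05 and the log2 fold change was above 1 or below -1. The p-values measure the spread between the 3 libraries of a group. Among the deleted genes in whole liver, *Gdf2* fell by 2.55 and *Bmp10* by 4.07 on the log2 scale. Of 12 pan-endothelial genes, 0 were called in ECs, with summed levels of 12055 to 12447 CPM in controls and 10676 to 11643 CPM in HSC-KO mice. HSC-KO replicate 1 stood apart in ECs. Its 10 sinusoidal genes summed to 55192 CPM, against 3399 and 1665 CPM in HSC-KO replicates 2 and 3 and 163746 to 254447 CPM in controls, and most of the sum was *Dnase1l3*. Among livers, HSC-KO replicate 3 stood apart in its *Xist* level of 0.167 CPM, against 303 to 708 CPM in the other livers.

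In GENCODE vM21 for GRCm38, *Apln* lies at chrX:48025146-48034853 on the minus strand with 3 exons. *Aplnr* lies at chr2:85136225-85139923 and *Esm1* at chr13:113209659-113218098, both on the plus strand and with no other exon over theirs. *Kcne3* (chr7:100176502-100184869) and *Mcam* (chr9:44134469-44142727), also on the plus strand, have exons that overlap *Gm34821* and *Gm10687* on the opposite strand. The strand setting of the counting is not given in the sources used here, so that reads of these overlapping genes may not be told apart. The coding sequence of *Apln*, 234 bases with the stop codon, is printed to show where the ligand lies, with the 39 bases of its last 13 codons, which encode the apelin-13 peptide, in capitals.
Apln: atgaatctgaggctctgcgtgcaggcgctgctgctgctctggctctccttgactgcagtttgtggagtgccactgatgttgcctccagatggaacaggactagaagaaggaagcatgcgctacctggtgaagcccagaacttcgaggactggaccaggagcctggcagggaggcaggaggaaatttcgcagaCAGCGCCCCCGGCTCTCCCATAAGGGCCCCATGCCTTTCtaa

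The 250 bases upstream of the start sites of *Apln* and *Esm1* are printed because these genes rose in both ECs and whole liver. They were taken from the RefSeq promoter table for GRCm38.p6, in which 4 of the 5 genes had an entry, at chrX:48034854-48035103 on the minus strand for *Apln* and at chr13:113209409-113209658 on the plus strand for *Esm1*. Capitals mark matches, on either strand, to the SMAD-associated motifs GGCGCC, GCCGNCGC and CAGAC, the HIF core ACGTG and the forkhead motif GTAAACA.
Apln upstream: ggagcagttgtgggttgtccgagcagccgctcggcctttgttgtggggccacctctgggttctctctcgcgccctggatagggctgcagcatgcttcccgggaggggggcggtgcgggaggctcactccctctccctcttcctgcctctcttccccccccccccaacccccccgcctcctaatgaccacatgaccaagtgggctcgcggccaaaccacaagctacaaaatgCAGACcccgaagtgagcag
Esm1 upstream: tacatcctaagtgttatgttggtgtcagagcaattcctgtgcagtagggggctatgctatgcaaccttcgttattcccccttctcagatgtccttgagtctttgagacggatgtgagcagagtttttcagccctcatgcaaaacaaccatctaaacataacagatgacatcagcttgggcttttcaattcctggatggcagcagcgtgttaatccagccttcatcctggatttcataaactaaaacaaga
The *Apln* window held 1 CAGAC, at position -19 from the start, and the *Esm1* window held none of the 5 motifs. Of all 32851 promoter windows of this length, 42.2% held CAGAC, 16.6% ACGTG, 9.59% GGCGCC, 6.89% GCCGNCGC and 3.17% GTAAACA. A match is a match of letters only, and its absence says nothing of binding elsewhere.

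To ask how the loss of *Gdf2* and *Bmp10* in HSCs bears on the apelin pathway, sorted ECs were compared first. Ligand and receptor both had few counts in control ECs and many in HSC-KO ECs. *Apln* had 66, 40 and 46 counts in control ECs against 5267, 6408 and 6307 in HSC-KO ECs. In CPM these were 0.805, 0.647 and 0.625 in controls and 55.9, 89.4 and 77.1 in HSC-KO mice, so that every HSC-KO library lay above every control library. *Apln* rose 107-fold (log2 fold change 6.74, SE 0.26, BH-adjusted p = 1.89e-05 by edgeR quasi-likelihood). *Aplnr* had 27, 8 and 4 counts in control ECs against 31410, 37397 and 73119 in HSC-KO ECs, or 0.329, 0.129 and 0.0543 CPM against 333, 522 and 894 CPM. The groups did not overlap, and *Aplnr* rose with a log2 fold change of 11.68 (SE 0.74, BH-adjusted p = 0.000106 by edgeR quasi-likelihood). Because its control counts were so low, the size of this change has a wide 95% interval, from 9.97 to 13.40 on the log2 scale, and the value was 12.64 without control replicate 1, which had 27 counts, and 11.23 without HSC-KO replicate 3. *Aplnr* passed the expression filter in ECs only through its HSC-KO libraries.

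Among the tip cell genes, *Esm1*, which encodes the secreted proteoglycan endocan, was measurable in control ECs already, at 8.92, 25.8 and 12.1 CPM. HSC-KO ECs had 227, 275 and 247 CPM, all above the controls. *Esm1* rose 16.0-fold (log2 fold change 4.0, SE 0.40, BH-adjusted p = 0.000619 by edgeR quasi-likelihood). *Kcne3* encodes a small accessory subunit of voltage-gated potassium channels. It was at 5.53, 9.68 and 21.02 CPM in control ECs and at 6.75, 44.2 and 14.2 CPM in HSC-KO ECs. The 2 groups overlapped, the log2 difference was 0.84 with a 95% interval from -0.82 to 2.51 (BH-adjusted p = 0.473 by edgeR quasi-likelihood), and it was -0.21 without HSC-KO replicate 2. *Mcam* encodes CD146, an adhesion molecule of endothelial junctions, and was at 56.1, 66.0 and 42.3 CPM in control ECs and at 62.6, 71.7 and 78.3 CPM in HSC-KO ECs. These groups overlapped too, with a log2 difference of 0.37 and a 95% interval from -0.05 to 0.80 (BH-adjusted p = 0.208).

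In ECs, *Apln* and *Esm1*, whose control libraries passed the expression filter too, were thus called higher, in a comparison in which 13.7% of 16053 genes tested were called, 7.68% as higher and 6.01% as lower. *Aplnr* is described beside them, and nothing is read from a count that includes it, since it passed the filter only where it was high. The groups of *Kcne3* and *Mcam* overlapped, whereas those of 40.4% of all genes tested did not. Without HSC-KO replicate 1, which had the lowest *Apln*, *Aplnr* and *Esm1* levels of its group, the log2 fold changes were 6.90 for *Apln*, 11.95 for *Aplnr* and 4.06 for *Esm1*. *Apln* is X-linked, and *Xist* was at 21.5 CPM in control replicate 1 and at 25.4 and 42.7 CPM in HSC-KO replicates 1 and 3, and at 0 counts in the other EC libraries. *Apln* was at 0.805 CPM against 55.9 and 77.1 CPM within the libraries with *Xist*, and at 0.647 and 0.625 CPM against 89.4 CPM within those without it.

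**Figure D1:**
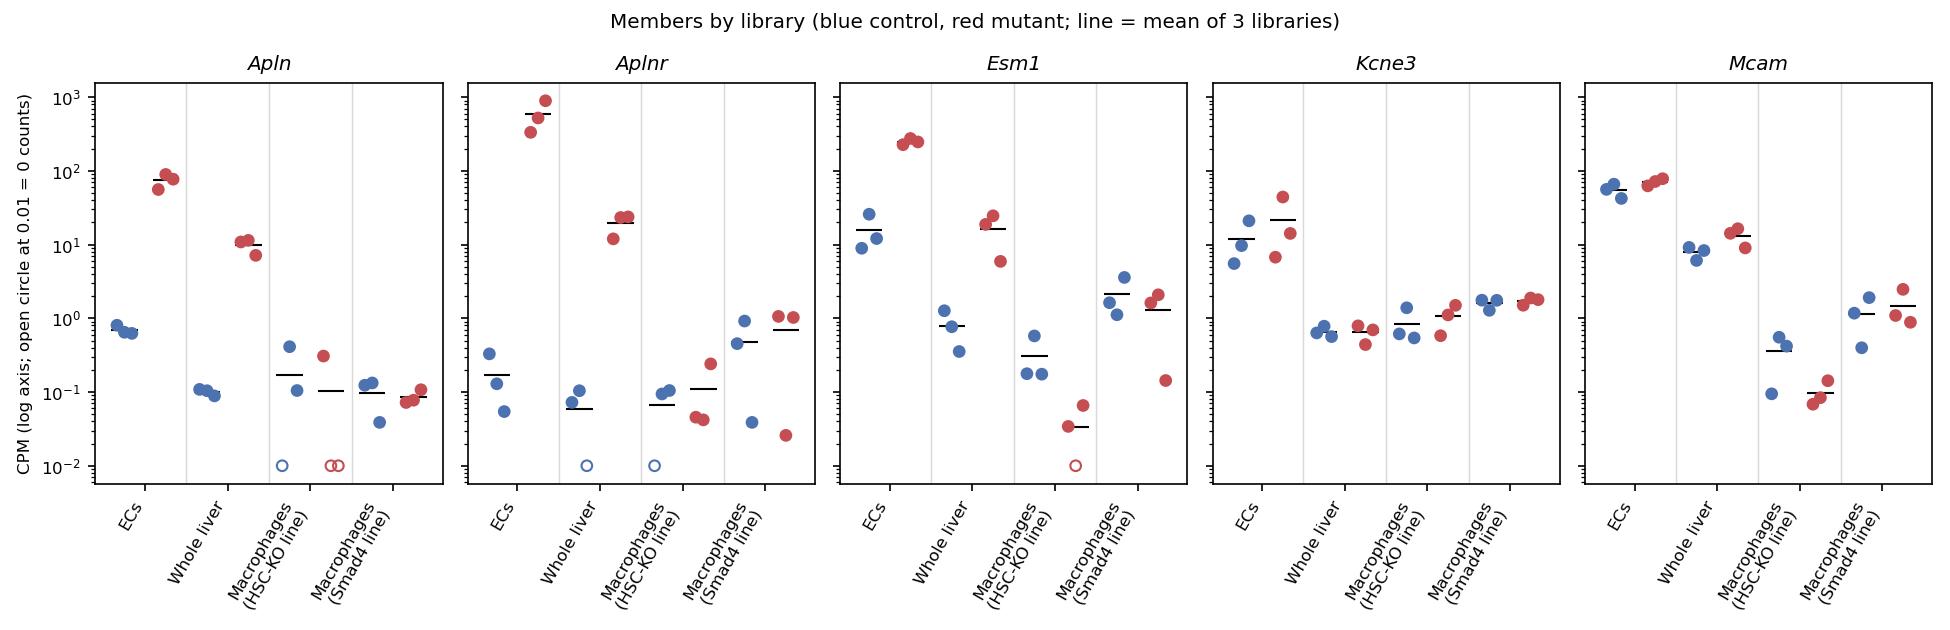
CPM of the 5 genes in each of the 24 libraries on a log axis, scaled within each comparison; points are libraries, lines are means of 3, blue is control, red is mutant, and open circles stand for 0 counts. In ECs the HSC-KO points of Apln (55.9 to 89.4 CPM), Aplnr (333 to 894 CPM) and Esm1 (227 to 275 CPM) sit above all control points, whereas those of Kcne3 and Mcam overlap them.

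Levels of different genes were compared as CPM per kilobase of exon, with all 24 libraries scaled together. In control ECs, the order was *Mcam* (13.9 ± 3.03, SD, n = 3), *Esm1* (6.31 ± 3.60), *Kcne3* (5.75 ± 3.78), *Apln* (0.187 ± 0.0287) and *Aplnr* (0.0395 ± 0.0332). The ranges of *Esm1* and *Kcne3* overlapped, and those of the other neighbours in this order did not. In HSC-KO ECs, the order was *Aplnr* (135 ± 64.2), *Esm1* (102 ± 9.35), *Apln* (20.2 ± 4.47), *Mcam* (18.1 ± 1.78) and *Kcne3* (10.4 ± 9.54). Here the ranges of *Aplnr* and *Esm1* overlapped, as did those of *Apln*, *Mcam* and *Kcne3*. *Apln* thus went from the fourth place to a level like that of *Mcam*, and *Aplnr* from the last place to the first.

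Macrophage transcripts in the EC libraries were lower in HSC-KO mice. The 10 macrophage markers summed to 42.3 to 52.4 CPM in control ECs and to 3.87 to 7.02 CPM in HSC-KO ECs, where 4 to 6 of the 10 were at 0 counts, and *Adgre1*, which encodes F4/80, was at 0.433 CPM or lower. Mural markers summed to 9.83 to 19.2 CPM in controls and 11.0 to 19.6 CPM in HSC-KO ECs. The 6 lymphatic endothelial markers summed to 4061 to 6865 CPM in controls and 1443 to 1821 CPM in HSC-KO ECs without overlap, with 2 called higher and 2 lower. They include *Lyve1*, which is also a sinusoidal gene here, and *Flt4*, which is also on the tip cell list, so the sum does not measure lymphatic endothelium alone. Their defining gene *Prox1* was at 1.15 to 2.67 CPM in controls and 1.56 to 1.63 CPM in HSC-KO ECs. The part of other cell types in the EC results was not tested.

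Other genes of the apelin pathway were then examined. Of 12 genes tested in ECs, 2 were called higher (*Apln*, and *Aplnr*, which passed the filter only where it was high), 1 lower and 9 not at all, where 7.68% of all genes were called higher and 6.01% lower, and their median log2 fold change was -0.06, against 0.0048 over all genes tested. *Furin*, a protease known to process proapelin, was at 227 CPM in controls and 232 CPM in HSC-KO ECs. *Arrb2*, a beta-arrestin that desensitizes G protein-coupled receptors, fell by 3.36 on the log2 scale (SE 0.46, BH-adjusted p = 0.00241 by edgeR quasi-likelihood), from 99.0 to 9.64 CPM, and *Arrb1* had a log2 difference of -1.82 (SE 1.29, adjusted p = 0.382). The G protein subunits *Gnai1*, *Gnai2*, *Gnai3*, *Gnaq* and *Gna13* had log2 differences from -0.77 to 0.82 and were not called (*Gna13*, -0.65, adjusted p = 0.0367, was within the fold limit). *Apela*, the second ligand of the receptor, had 0 counts in all EC and liver libraries, and a count of 0 allows up to 3 counts per library.

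The tip cell list was examined next. Of 31 genes tested in ECs, with *Apln*, *Esm1*, *Kcne3* and *Mcam* among them, 13 were called higher, 2 lower and 16 not, with a median log2 fold change of 0.84, whereas over all genes 7.68% were higher and 6.01% lower and the median was 0.0048. The largest rises were those of *Igfbp3*, an IGF-binding protein (log2 fold change 8.07), *Apln*, the laminin chain *Lamb1* (5.02), the sialomucin *Cd34* (4.89) and *Ramp3*, an accessory protein of the adrenomedullin receptor (4.36). *Mmp14*, a membrane metalloprotease, fell by 2.34, and *Flt4*, the VEGF-C receptor VEGFR3, fell by 1.68. Classical tip cell genes of the list, named after their values were seen, differed in their calls. *Pdgfb*, which encodes a ligand that recruits mural cells, rose by 4.11, from 10.4 to 179 CPM. The following genes gave no call. The Notch ligand *Dll4* was at 197 and 189 CPM (log2 difference -0.06), the VEGF receptor *Kdr* at 2922 and 1955 CPM (-0.58) and *Angpt2* at 35.9 and 13.3 CPM (-1.44, adjusted p = 0.0745). Of the 15 stalk cell genes tested, 2 were called higher, 3 lower and 10 not, beside the 7.68% and 6.01% over all genes. *Aplnr*, with the limit of its filter given above, and *Acvrl1*, which encodes ALK1 (1.73), rose, and *Smad6* (-3.01), *Id2* (-2.28) and *Eng* (-1.31), which encodes the ALK1 co-receptor endoglin, fell.

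**Figure D2:**
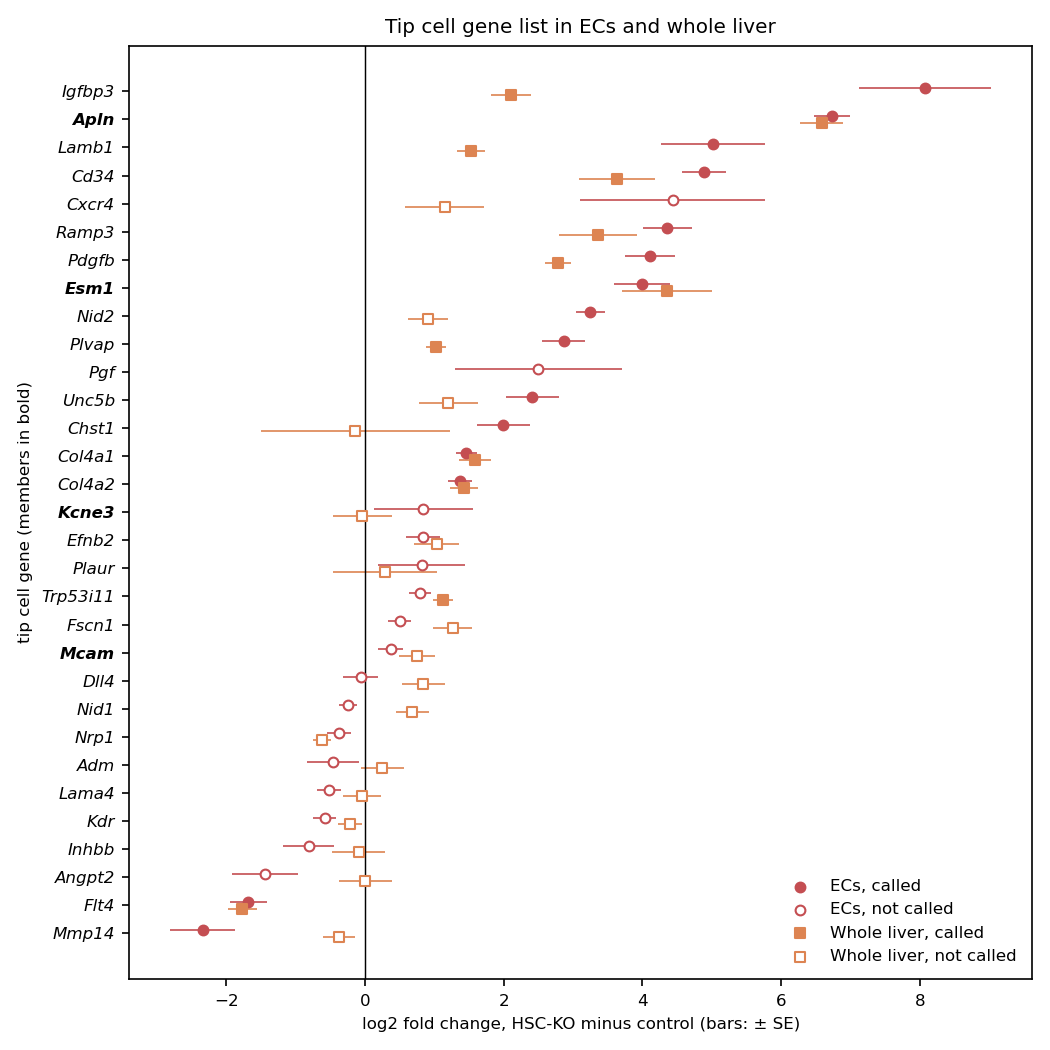
Log2 fold change (HSC-KO minus control, bars ± SE, n = 3 libraries per group) of the tip cell genes in ECs (circles) and whole liver (squares); filled symbols were called and open symbols were not. Apln and Esm1 lie at 6.74 and 4.0 in ECs and at 6.58 and 4.35 in whole liver, whereas Kcne3 and Mcam lie between -0.04 and 0.84 and are open in both.

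Among partners of the channel subunit *Kcne3*, *Kcnq1*, the pore-forming channel with which KCNE3 is known to assemble, fell by 1.51 on the log2 scale (SE 0.20, BH-adjusted p = 0.00214 by edgeR quasi-likelihood), from 56.7 to 19.9 CPM. Of the same family and partners, *Kcne1*, *Kcne2*, *Kcne4*, *Kcne1l* and *Kcnc4* had 0 counts in every EC library. Of 11 genes tested in the *Mcam* list, 4 were called higher, 2 lower and 5 not, with 7.68% and 6.01% over all genes. *Lamb1* (5.02), *Bcam* (2.82), *Lamc1* (2.14) and *Lama5* (1.27), which encode laminin chains and the laminin receptor BCAM, rose. The galectin genes *Lgals1* (-2.90) and *Lgals3* (-2.70) fell, and *Lama4*, whose product laminin 411 binds CD146, had a difference of -0.52 (adjusted p = 0.0706).

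Whole liver was then examined for a trace of the EC changes. In whole tissue, fewer cells of a type and less RNA per cell cannot be told apart. *Apln* had 12, 8 and 8 counts in control livers and 810, 959 and 513 in HSC-KO livers, or 0.109, 0.104 and 0.0886 CPM against 10.9, 11.4 and 7.14 CPM. The groups lay far apart, with a log2 fold change of 6.58 (SE 0.31, BH-adjusted p = 0.000226 by edgeR quasi-likelihood), or 96.0-fold. *Aplnr* had 8, 8 and 0 counts in controls and 893, 1959 and 1706 in HSC-KO livers, equal to 0.0724, 0.104 and 0 CPM against 11.96, 23.3 and 23.8 CPM. It rose by 8.37 on the log2 scale (SE 0.66, BH-adjusted p = 0.0012) without overlap of the groups, and by 7.82 without control replicate 3, which had 0 counts, or 8.94 without control replicate 2. In whole liver, *Apln* and *Aplnr* passed the expression filter only through the HSC-KO livers. *Esm1* was at 1.27, 0.769 and 0.355 CPM in controls and at 18.8, 24.6 and 5.92 CPM in HSC-KO livers, lowest in HSC-KO replicate 3. It rose by 4.35 on the log2 scale (SE 0.65, BH-adjusted p = 0.0153 by edgeR quasi-likelihood). That call was lost without control replicate 2 (4.34, adjusted p = 0.0848), control replicate 3 (4.02, adjusted p = 0.0607) or HSC-KO replicate 1 (4.25, adjusted p = 0.0629).

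The other tip cell members showed no call in whole liver. *Kcne3* was at 0.634, 0.782 and 0.565 CPM in controls and at 0.790, 0.440 and 0.696 CPM in HSC-KO livers (log2 difference -0.04, 95% interval -1.03 to 0.95, BH-adjusted p = 0.989). *Mcam* was at 9.16, 6.10 and 8.31 CPM in controls and at 14.2, 16.4 and 9.01 CPM in HSC-KO livers (log2 difference 0.75, 95% interval 0.16 to 1.34, BH-adjusted p = 0.244 by edgeR quasi-likelihood). HSC-KO replicate 3 lay below control replicate 1 for *Mcam*, so that its groups overlapped. Of the 3 members whose control livers passed the expression filter, *Esm1* was called, in a comparison in which 2.48% of 17118 genes were called, 1.03% as higher and 1.45% as lower, and in which the groups of 19.7% did not overlap. *Apln* and *Aplnr* are described beside it and not counted. Without HSC-KO replicate 3, the log2 fold changes of *Apln*, *Aplnr* and *Esm1* were 6.77, 8.22 and 4.75.

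**Figure D3:**
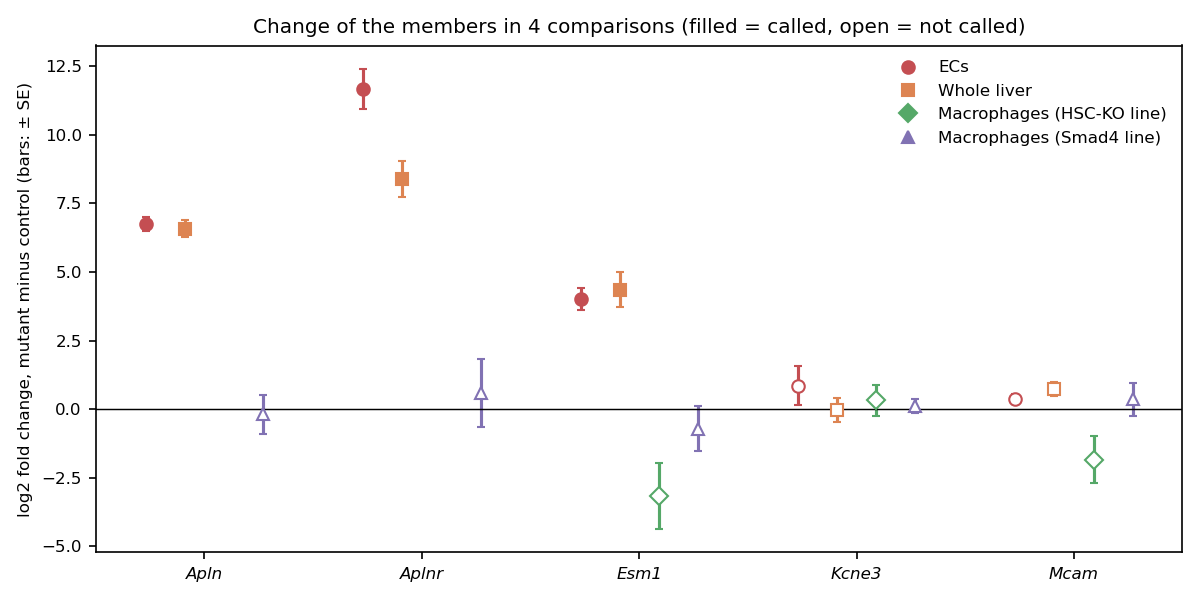
Log2 fold change (mutant minus control, bars ± SE, n = 3 libraries per group) of the 5 genes in ECs, whole liver and both macrophage experiments; filled symbols were called and open symbols were not. Apln, Aplnr and Esm1 have filled symbols in ECs (6.74, 11.68 and 4.0) and whole liver (6.58, 8.37 and 4.35), where Aplnr in ECs and Apln and Aplnr in liver passed the filter only through HSC-KO libraries and Esm1 in liver lost its call in 3 of 6 fits without 1 library, and no symbol is filled in macrophages.

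The tip cell list was also examined in whole liver. Of its 30 genes tested there, with *Apln*, *Esm1*, *Kcne3* and *Mcam* among them, 11 were called higher, 1 lower and 18 not. Over all genes tested, 1.03% were called higher and 1.45% lower. The median was 0.97, against -0.0098 over all genes tested. Both the 11 and this median include *Apln*, which passed the filter only through the HSC-KO livers. *Igfbp3* (2.11), *Lamb1* (1.53), *Cd34* (3.63) and *Ramp3* (3.36) rose, and *Flt4* fell by 1.76, while *Mmp14* had a difference of -0.38 (adjusted p = 0.588).

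To set these levels against the endothelial RNA of the same library, each member was divided by the summed CPM of the 12 pan-endothelial genes. That sum was 297 to 347 CPM in control livers and 321 to 392 CPM in HSC-KO livers, with 1 of the 12 genes called higher (*Sox18*) and 1 lower (*Ptprb*), both named after their values were seen. Per 1000 pan-endothelial CPM, *Apln* was at 0.366, 0.310 and 0.255 in controls and at 33.8, 29.1 and 20.9 in HSC-KO livers. *Aplnr* was at 0.244, 0.310 and 0 in controls and at 37.3, 59.5 and 69.4 in HSC-KO livers, and *Esm1* at 4.27, 2.29 and 1.02 against 58.5, 62.7 and 17.3. For these 3 genes the groups did not overlap, and the log2 ratio, with a pseudocount of 0.01, was higher by 6.43, 9.16 and 4.204, each with p = 0.1 in a two-sided exact permutation test, which is the smallest p that 3 against 3 libraries can give. The value for *Aplnr* was 7.55 without control replicate 3, which had 0 counts, 9.89 without control replicate 1 and 10.05 without control replicate 2. For *Esm1* it was 4.81 without HSC-KO replicate 3. *Kcne3* differed by -0.17 (exact permutation p = 0.8) and *Mcam* by 0.62 (exact permutation p = 0.2), with overlapping groups. With *Pecam1* and *Cdh5* alone in the divisor, the differences were 5.87, 9.28, 3.61, -0.77 and 0.02 in the same order of genes.

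**Figure D4:**
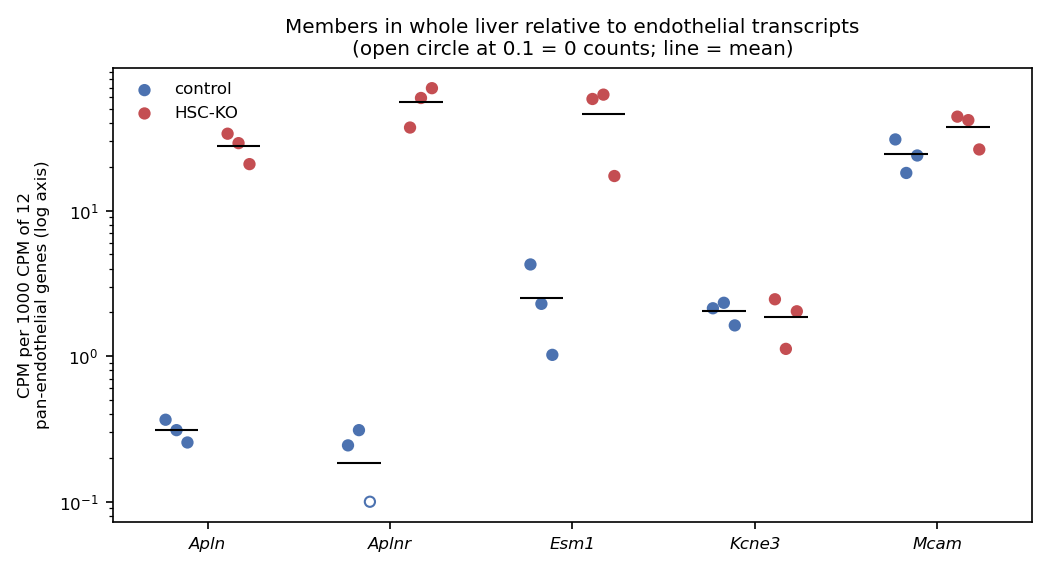
Level of each gene in whole liver as CPM per 1000 summed CPM of 12 pan-endothelial genes, on a log axis; points are libraries, lines are means of 3, blue is control and red is HSC-KO, and the open circle stands for 0 counts. Apln, Aplnr and Esm1 lie higher in all HSC-KO livers (20.9 to 33.8, 37.3 to 69.4 and 17.3 to 62.7) than in any control, and Kcne3 and Mcam overlap.

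The pan-endothelial genes were also used to ask how much of each liver level the sorted EC level would give. Their median level in whole liver was 4.19% of that in ECs for controls and 4.23% for HSC-KO mice, with single genes from 1.48 to 87.7%. For *Aplnr* in HSC-KO mice, the EC level times this share gave 21.05 CPM, and 22.2 CPM was measured. For *Esm1* it gave 9.04 CPM against 18.5 CPM measured, for *Apln* 2.68 CPM against 11.0 CPM, for *Mcam* 2.57 CPM against 14.9 CPM, and for *Kcne3* 0.785 CPM against 0.724 CPM. In whole liver *Apln* and *Mcam* were thus at 4.11 and 5.79 times the level given by the EC share, and in control livers at 4.78 and 4.73 times. The control ratios of the other genes were 1.69 for *Esm1*, 1.80 for *Kcne3* and 11.2 for *Aplnr*, the last from 0.0688 CPM measured and at most 8 counts per liver. These are descriptions across mice of different ages, 8 to 10 weeks for ECs and 12 weeks for livers. Stellate markers in the same livers summed to 365 to 480 CPM in controls and 638 to 716 CPM in HSC-KO mice with 0 of 10 called, mural markers to 47.9 to 62.2 and 34.9 to 75.0 CPM, and macrophage markers to 412 to 692 and 71.0 to 119 CPM, with 7 of 10 called lower. Hepatocyte markers summed to 124320 to 151963 CPM in control livers and 156374 to 205985 CPM in HSC-KO livers. Cholangiocyte markers summed to 55.4 to 84.5 and 26.1 to 36.2 CPM, and sinusoidal markers to 522 to 680 and 103 to 129 CPM, in the same order. The part of these cell types in the liver levels of the members was not tested.

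Whether the changes differed in size between ECs and whole liver was tested as an interaction over 12 libraries, in which 6.53% of 18875 genes and none of the members were called by edgeR quasi-likelihood, whereas DESeq2 called *Aplnr* (3.32, adjusted p = 0.0036). The EC fold change exceeded that of liver by 0.19 for *Apln* on the log2 scale (95% interval -0.67 to 1.05, BH-adjusted p = 0.909). For *Aplnr* it was 3.34 (2.80 to 4.29 with 1 library left out), a description only, since this gene entered the fit through its HSC-KO libraries and the difference turns on control counts of 27, 8 and 4 in ECs and 8, 8 and 0 in livers. The difference was -0.31 for *Esm1* (-1.97 to 1.35), 0.92 for *Kcne3* (-1.05 to 2.89) and -0.34 for *Mcam* (-1.07 to 0.40).

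In liver macrophages, the members were low and none was called. In the HSC-KO line, *Apln* had 0, 35 and 6 counts in controls and 27, 0 and 0 in HSC-KO mice, and *Aplnr* had 0, 8 and 6 against 4, 4 and 22, so that both fell under the expression filter. *Esm1* had 15, 49 and 10 counts in controls and 3, 0 and 6 in HSC-KO macrophages without overlap in CPM (log2 difference -3.17, SE 1.22, BH-adjusted p = 0.113 by edgeR quasi-likelihood). Since *Esm1* passed the filter here only through the control libraries, in which it is higher, these values are a description. *Mcam* had 8, 47 and 24 against 6, 8 and 13 (-1.84, adjusted p = 0.189), and *Kcne3* had 52, 118 and 31 against 51, 106 and 137 (0.32, adjusted p = 0.738). With 0 of 3 tested members called, 11.7% of 16337 genes were called here (6.32% higher and 5.34% lower), and the groups of 40.3% did not overlap. The pan-endothelial genes summed to 335 to 482 CPM in controls and 8.95 to 55.9 CPM in HSC-KO macrophages. Most of the control sum was *Cdh5* (197 to 282 CPM, against 0.765 to 2.68 CPM in HSC-KO macrophages). The paper counts *Cdh5* among the identity genes of Kupffer cells, the resident liver macrophages, so this sum does not measure endothelial transcripts alone. The part of endothelial transcripts in the *Esm1* and *Mcam* values was not tested.

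In the macrophages of the *Smad4* experiment, *Smad4* itself fell by 1.39 on the log2 scale, and 0 of the 5 members were called while 5.43% of 17517 genes were (2.76% higher and 2.67% lower). The log2 differences were -0.20 for *Apln*, 0.58 for *Aplnr*, -0.71 for *Esm1*, 0.11 for *Kcne3* and 0.35 for *Mcam*, with adjusted p from 0.697 to 0.907 and overlapping groups for each, whereas the groups of 29.4% of all genes did not overlap. *Aplnr* was at 0.453, 0.919 and 0.0388 CPM in controls and at 1.06, 0.0258 and 1.03 CPM in the mutants, a spread within each group larger than the difference. Pan-endothelial sums were 628 to 1826 CPM in controls and 1287 to 1560 CPM in the mutants, above those of the HSC-KO line. Over all 8 groups, *Apln* per kilobase was highest in HSC-KO ECs (20.2), followed by HSC-KO livers (3.504) and control ECs (0.187), and the other 5 groups lay between 0.0270 and 0.0571 with overlapping ranges. *Aplnr* was likewise highest in HSC-KO ECs (135) and HSC-KO livers (5.99), and the other 6 groups, from 0.0185 to 0.188, overlapped with each other. For *Esm1*, HSC-KO ECs (102) were followed by HSC-KO livers (8.81 ± 5.11) and control ECs (6.31 ± 3.60), which overlapped, and the other 5 groups were at 1.01 or lower. *Kcne3* and *Mcam* were highest in ECs of either genotype. *Kcne3* was at 10.4 and 5.75 in HSC-KO and control ECs and at 0.407 to 0.963 elsewhere. *Mcam* was at 18.1 and 13.9 in ECs, at 4.44 and 2.75 in HSC-KO and control livers, whose ranges overlapped, and at 0.440 or lower in macrophages. These levels join 4 separately deposited tables that were scaled together.

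Finally, each gene was compared with 11303 genes detected in ECs by the Pearson correlation of log2 CPM over the 24 libraries, which share cell type and experiment, so that the values are descriptions. The genes most like *Apln* were *Ephb1* (r = 0.951), *Kcna5* (0.946) and *Fam101b* (0.939), and those most like *Aplnr* were *Kank4* (0.931), *4930578C19Rik* (0.931) and *Lrrc3b* (0.925). *Esm1* was most like *Limch1* (0.951), *Colgalt2* (0.944) and *Mal* (0.933). *Kcne3* was most like *Apold1* (0.942), *Oaz2* (0.939) and *Ginm1* (0.932), and *Mcam* like *Cnn3* (0.987), *Dock9* (0.984) and *Adgrl2* (0.981). Between members, r was highest for *Apln* and *Aplnr* (0.896), *Esm1* and *Mcam* (0.884) and *Apln* and *Esm1* (0.860), and lowest for *Aplnr* and *Kcne3* (0.434). In ECs, the genes nearest to *Apln* had log2 fold changes of 7.55 (*Ephb1*), 10.52 (*Kcna5*) and 6.66 (*Fam101b*), and those nearest to *Mcam* had 0.47 (*Cnn3*), 0.62 (*Dock9*) and 0.02 (*Adgrl2*).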

How the data were processed

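The deposited values are unnormalized gene counts, 1 table per experiment, which the authors obtained with featureCounts from HISAT2 alignments to mm10 (GRCm38). Versions, annotation release and strand setting are not given in the sources used here. Libraries were grouped by the sample labels. Nothing says that libraries of a group came from pooled animals. Each comparison used its 6 libraries, filterByExpr (minimum count 10, total 15), TMM scaling and the quasi-likelihood test of edgeR 4.0.16 in R 4.3.3, which was checked on simulated counts. Calls required a BH-adjusted p under 0.05 and a log2 fold change beyond 1 in either direction. SE was the log2 fold change divided by the square root of F, and intervals used the test's t distribution. Interactions used 12 libraries without the 237 repeated symbols. Alternatives were DESeq2 1.42.0, other scalings and filters, glmTreat, 1 fit over 24 libraries, *Xist* as covariate, the replicate block and leaving out libraries. The members and all gene lists were chosen with earlier results of these data known. Named were the members, the deleted genes, the 3 genes most like each member, list genes called in ECs (up to 5 per direction), and the apelin, potassium channel and *Mcam* partner lists, of which some genes are not reported here.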

Additional observations from a re-analysis of the deposited data

Results flagged for a closer look

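Whether fold changes differed between ECs and liver macrophages of the HSC-KO line was tested as an interaction over 12 libraries, in which 12.3% of 18213 genes were called. *Esm1* and *Mcam* were called, with limits given below. The EC minus macrophage difference on the log2 scale was 7.21 for *Esm1* (95% interval 5.17 to 9.25, BH-adjusted p = 0.000464 by edgeR quasi-likelihood, 6.37 without macrophage control replicate 2 and 8.14 without macrophage HSC-KO replicate 3) and 2.19 for *Mcam* (0.75 to 3.62, adjusted p = 0.0438). For *Kcne3* it was 0.52 (-1.64 to 2.68, adjusted p = 0.808). In this fit the macrophage side of the *Esm1* difference was -3.21, which rests on 3, 0 and 6 counts in HSC-KO macrophages. In the macrophage comparison *Esm1* passed the filter only through its controls and was not called, so the size of its difference is a description. The *Mcam* difference lost its call in 10 of the 12 fits without 1 library (1.64 to 2.66, adjusted p from 0.00156 to 0.137). The same fit gave 7.53 for *Apln* and 10.88 for *Aplnr*, which are descriptions only. Both genes were under the expression filter in macrophages, with at most 35 counts per library, and entered this fit through the HSC-KO ECs in which they are high, so that these values restate the EC changes and support no difference between the cell types. The 3 mice that gave both cell types were not blocked, and the part of endothelial transcripts in the macrophage libraries was not tested.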

How the results depend on the processing

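Of 562 values recomputed under alternatives, 515 kept their direction and their side of the threshold, or their count within 1.5 times. Among them were all values of *Apln*, *Aplnr* and *Esm1* in ECs and of *Apln* and *Aplnr* in whole liver. Against a log2 fold change of 1 (glmTreat), 1096 genes were called in ECs, 142 in liver, 906 in HSC-KO macrophages and 315 in *Smad4* macrophages. DESeq2 called 814 genes in liver and 2003 in the EC minus liver difference, where *Aplnr* (3.32) gained a call (adjusted p = 0.0036) but had passed the filter only where it was high. With total counts alone, that difference turned to 0.082 for *Esm1* and 0.028 for *Mcam*. With all genes of at least 1 count, the *Mcam* difference between ECs and macrophages (2.18) lost its call (adjusted p = 0.0509). Correlations of same-numbered libraries' deviations ran from -0.11 to 0.16 and were not above 0.1 in every pair of any comparison. In ECs they were 0.103, 0.117 and 0.033, against -0.130 to 0.023 for libraries of different numbers, whereas in each other comparison the ranges overlapped. These values cannot settle whether the replicate numbers pair the samples, and the main fits used no pairing. With the replicate block, 271 genes were called in liver and the *Apln* difference between ECs and macrophages was 7.60 (adjusted p = 0.0526).

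With 1 library left out in turn, counts of calls ran from 188 to 451 in liver and from 566 to 909 in *Smad4* macrophages. *Esm1* in liver ran from 3.95 to 4.89, and *Aplnr* from 11.23 to 12.64 in ECs and 7.82 to 8.94 in liver. *Kcne3* ran from -0.21 to 1.51 in ECs, -0.22 to 0.17 in liver, -0.0051 to 0.88 in HSC-KO macrophages and -0.038 to 0.20 in *Smad4* macrophages, where *Apln* ran from -0.59 to 0.064, *Aplnr* from 0.012 to 1.497, *Esm1* from -1.25 to -0.11 and *Mcam* from -0.24 to 0.90. The EC minus liver difference ran from -0.85 to 0.26 for *Esm1*, -0.14 to 1.57 for *Kcne3* and 2.80 to 4.29 for *Aplnr*. The EC minus macrophage difference ran from 5.57 to 13.66 for *Apln* and 10.38 to 12.17 for *Aplnr*, both under the filter in macrophages, 6.37 to 8.14 for *Esm1*, -0.53 to 1.18 for *Kcne3* and 1.64 to 2.66 for *Mcam*. *Esm1* in HSC-KO macrophages ran from -4.09 to -2.36. Per pan-endothelial CPM in liver, *Aplnr* ran from 7.55 to 10.05, *Esm1* from 3.67 to 4.81 and *Kcne3* from -0.41 to 0.16. The causes were not tested.

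Depth limits *Apln*, *Aplnr* and *Esm1* in macrophages and *Aplnr* in controls, with under 30 counts per library in control ECs and livers. Macrophage libraries hold endothelial transcripts, and ECs and livers came from mice of different ages.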
